A study of Rattus norvegicus with 8 samples.

Results

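Amino acid and neurotransmitter transporters were taken as the genes whose symbol begins with Slc1a, Slc6a, Slc7a, Slc17a, Slc18a, Slc32a, Slc36a or Slc38a. The choice used symbols alone and no measured value. The probe annotation table held 62 such genes among 14871 named genes, on 115 spots. Of the 62, 40 had a spot with a value on all 8 arrays and entered the comparison, out of 9792 named genes that did so. By family, the measured genes were 6 of 7 Slc1, 6 of 15 Slc6, 10 of 14 Slc7, 4 of 8 Slc17, 3 of 3 Slc18, 1 of 1 Slc32, 3 of 4 Slc36 and 7 of 10 Slc38 genes. One of the 40, Slc7a6os, lies opposite Slc7a6 and is caught by its symbol, but is not a transporter.

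The samples were purified retinal ganglion cells (RGCs), the output neurons of the retina, from rat eyes exposed to chronic ocular hypertension (COH, a lasting pressure rise used as a model of glaucoma) and from the normotensive fellow eyes of the same animals. There were 4 COH and 4 control samples. Each was a pool of animals hybridised to its own array, and COH and control pools with the same number form a pair. The labels do not give the strain, the age, the duration and degree of the pressure rise, how the cells were purified, or the number of animals per pool. Every value is a level: the log2 ratio of RGC RNA over a universal rat reference RNA on the same spot, so 0 means equal signal and 1 means a ratio of 2. What the reference RNA contains is not stated, so a level does not give an amount of RNA, and levels of different genes are not ranked as amounts.

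These proteins move amino acids and transmitters across membranes. Plasma membrane transporters of the Slc1 and Slc6 families use the sodium gradient to clear glutamate, GABA, glycine and monoamines from the synapse, while the vesicular transporters of the Slc17, Slc18 and Slc32 families load transmitter into synaptic vesicles. The Slc7, Slc36 and Slc38 families mainly feed cells with cationic, small neutral and glutamine-like amino acids. In the retina, RGCs signal with glutamate, Muller glia take up most of the glutamate that neurons release, and amacrine cells use GABA, glycine, acetylcholine or dopamine.

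The arrays set the limits of what follows. An array carried values for 86 to 104 of the 115 transporter spots. The array COH 4 drifted most with spot position, by 1.11 between the lowest and highest point of a running median, against 0.12 to 0.83 on the other 7 arrays. For transporter genes described array by array, the value without a pair is given where leaving out that pair turned the sign of the difference or moved it by over 1.5 times. Many spots held exactly the same value as at least 2 others on the array, taken here as a stand-in for weak signal, since intensities were not used. Of the 40 genes, 13 had at least 1 spot free of such shared values on all 8 arrays. For 8 genes (Slc1a4, Slc1a6, Slc7a7, Slc7a11, Slc17a2, Slc36a4, Slc38a3 and Slc38a4) all spots used had shared values on 8 of 8 arrays. As a check of the cell label, 11 of 14 RGC markers were measured. Their median level per array was between -0.43 and 0.30 in COH and between -0.20 and 0.57 in control samples. The growth-cone protein gene Gap43 was at 1.80 in COH cells against 1.72 in control cells, and the RGC surface marker gene Thy1 at -0.51 in COH cells against 0.77 in control cells. Sncg and Ebf1 were below the reference on all 8 arrays, at -0.72 and -1.36 in COH cells against -0.61 and -1.04 in control cells. Of the 11, 4 were above the reference on all 4 COH arrays and 3 below. On all 4 control arrays 3 were above and 2 below. Among all named genes, 21.4% were above and 42.9% below on all 4 COH arrays, against 22.3% and 45.9% on the control arrays. Of 4 measured bipolar cell markers, 2 were above the reference on all arrays of both groups and 1 below. The RGC transcription factor genes Pou4f2 and Ebf3 and the heavy neurofilament gene Nefh lacked a spot measured throughout. Thy1 was lower in COH cells in 3 of 4 pairs, with a difference of -1.28, an unadjusted limma p of 0.029 and an adjusted p of 0.915. Of the 11 RGC marker differences, 5 were above 0 and 6 below, with a median of -0.07. A ratio to reference RNA does not give the share of RGCs in a sample.

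The comparison of hypertensive with fellow eyes asks which transcripts the pressure rise goes with. In a limma fit that blocked on the pair, 0 of 40 transporter genes had an adjusted p under 0.05, as did 0% of all 18595 items (named genes and unnamed probes) tested. In simulated data of this size, with few items changed, the same fit passed no gene at that threshold either. This held even at the largest change simulated, 3 log2 units, so a count of 0 does not show an absence of change. At an unadjusted p under 0.05 by limma there were 5 of 40, beside 4.73% of all items. Of these, 1 transporter gene was higher and 4 were lower in COH cells, where 2.57% of all items were higher and 2.17% lower at that p. Slc7a10 was the higher one. Slc36a3, Slc6a2, Slc17a2 and Slc1a2 were the lower ones, and all 5 had an adjusted p of 0.915. The median difference, COH minus control, was -0.09 over the 40 genes and 0.08 over all items. Of the 40 genes, 17 had a difference above 0 and 23 below 0, and 56.2% of all items had a difference above 0. The median over the 40 genes was -0.12 in pair 1, -0.35 in pair 2, 0.29 in pair 3 and -0.16 in pair 4, so 1 of 4 pairs went the other way. No gene had every COH array above every control array, beside 1.58% of all items, and 2 had every COH array below, beside 0.946% of all items. In bulk RNA, fewer cells of a type and less RNA per cell cannot be told apart.

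The width of the 95% intervals bounds how large a difference could have been missed. Its median over the 40 genes was 2.01 log2 units. For 7 genes the interval lay within 1 log2 unit of 0, that is within a 2-fold change, and for 32 it lay within 2 log2 units. The most repeated were Slc17a6 and Slc1a1, with 10 complete spots each.

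**Figure D1:**
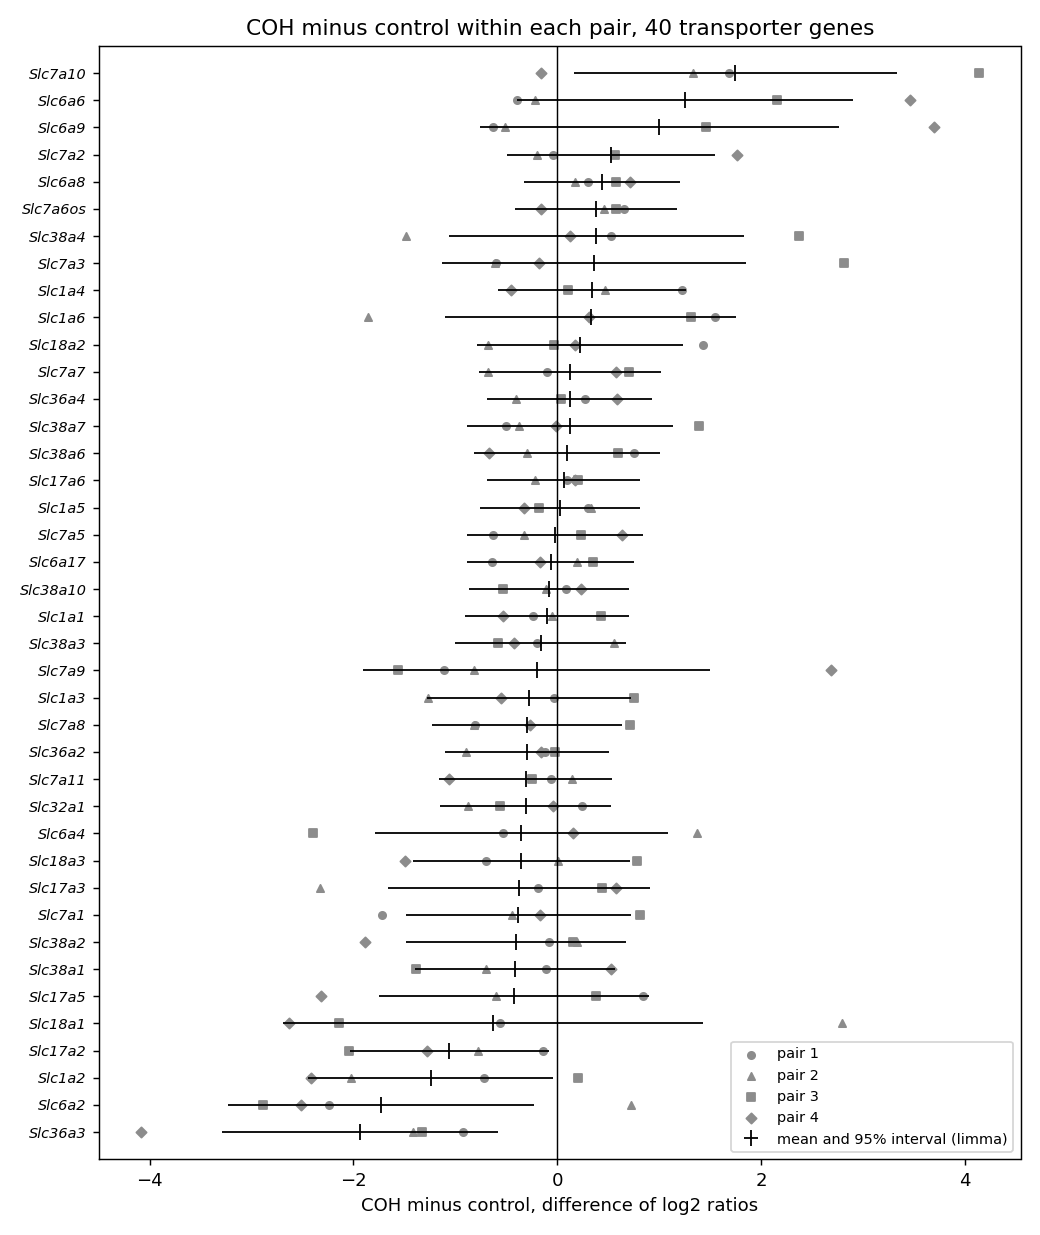
Difference of log2 ratios, COH minus control, for the 40 transporter genes, ordered by size. Grey symbols are the 4 pairs, and the black mark and line are limma's mean and 95% interval; only the intervals of Slc7a10 (above 0) and of Slc17a2, Slc1a2, Slc6a2 and Slc36a3 (below 0) leave out 0, before any adjustment for the 18595 items tested.

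The vesicular glutamate transporter gene Slc17a6, whose protein fills the glutamate vesicles of RGC terminals, was close to the reference RNA in both groups. Its level was 0.48, 0.23, 0.35 and 0.10 on the arrays COH 1 to 4, against 0.39, 0.45, 0.14 and -0.08 on control 1 to 4. It was above the reference on 7 of 8 arrays and the groups overlapped. The mean was 0.29 ± 0.16 in COH cells against 0.23 ± 0.24 in control cells (SD, n = 4), giving a difference of 0.06 ± 0.32 (SE) with a 95% interval from -0.69 to 0.82 and a limma adjusted p of 0.984. It was 0.02 without pair 4, 0.01 without pair 3 and 0.16 without pair 2. An interval of this width still allows a change of over 1.5-fold either way. The 10 spots of Slc17a6 had SDs of 0.22 to 0.58 around their mean on the COH arrays and 0.11 to 0.29 on the control arrays. The widest was on COH 4, at 0.58, and it was 0.40 with the position trend removed.

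The other vesicular glutamate transporters were measured less well. Slc17a7, used by photoreceptors and bipolar cells in the retina, had values on 5 of 8 possible spot and array combinations in COH samples and 7 of 8 in control samples, none complete. These ran from -0.17 to 1.12 in COH and from -0.19 to 1.76 in control samples. Slc17a8, known from a subset of amacrine cells, was at -0.74 to 1.81 on 3 COH arrays and at 1.49 to 2.57 on 3 control arrays, with 2 complete pairs. Slc17a8 was not tested. Where 3 complete pairs were enough, Slc17a7 differed by 0.24 (unadjusted limma p 0.599).

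**Figure D2:**
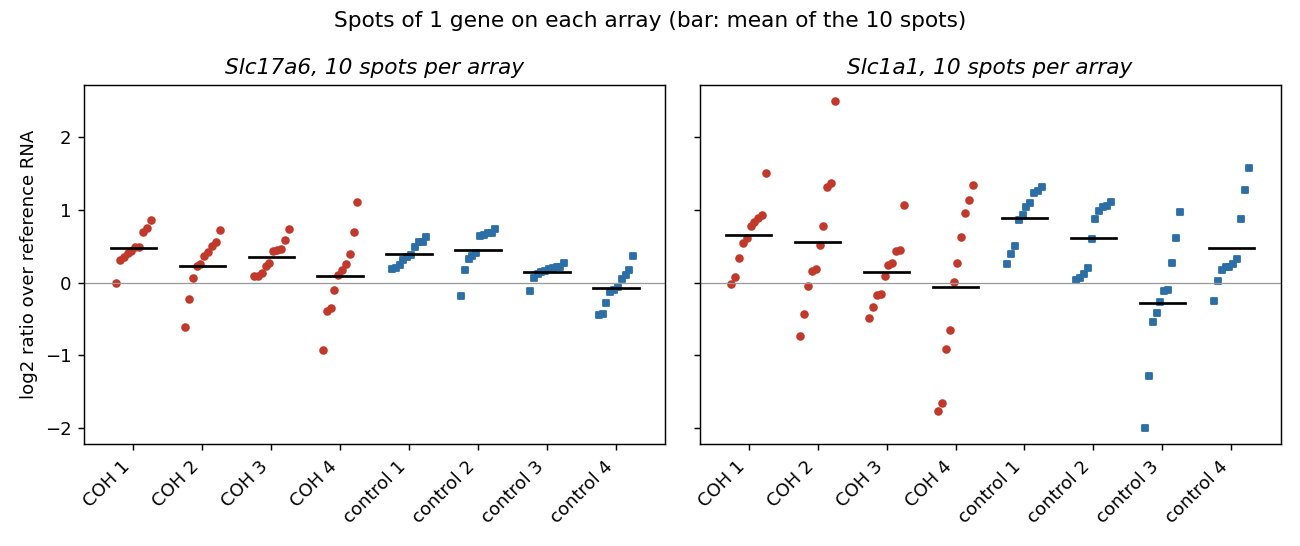
Log2 ratio over reference RNA of the 10 complete spots of Slc17a6 (left) and Slc1a1 (right) on each array, sorted by value within an array; the bar is their mean. Spots of Slc1a1 spread more than those of Slc17a6 on all 8 arrays, most on COH 4 (SD 1.13).

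Slc1a1 encodes the glutamate transporter of neurons in the plasma membrane. It was at 0.65, 0.56, 0.14 and -0.06 on COH 1 to 4, against 0.89, 0.61, -0.29 and 0.47 on control 1 to 4. Both groups were mostly above the reference and overlapped fully. The difference was -0.10 (95% interval -0.90 to 0.71, limma adjusted p 0.977). It was -0.05 without pair 1, -0.27 without pair 3 and 0.05 without pair 4. Its 10 spots did not stand at 1 level: their means over the 8 arrays covered a range of 1.15.

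Slc1a3 and Slc1a2 are further glutamate transporter genes of the plasma membrane. Slc1a3, the main glutamate transporter of Muller glia, was at -2.83, -2.16, -2.92 and -3.39 on COH 1 to 4, against -2.80, -0.89, -3.68 and -2.84 on control 1 to 4. Control 2 was the highest array and the groups overlapped. The mean was -2.83 ± 0.51 in COH cells against -2.55 ± 1.18 in control cells (SD, n = 4), giving a difference of -0.27 with a 95% interval from -1.27 to 0.72, and of -0.18 without pair 4, -0.62 without pair 3 and 0.06 without pair 2. Its 2 spots differed in direction, at 0.20 and -0.75. The first of them had distinct values throughout. On no array did both spots have shared values.

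Slc1a2, the main glutamate transporter of astrocytes in the brain, rested on 1 complete spot. That spot was at -2.11, -2.94, -2.45 and -4.32 on COH 1 to 4, against -1.39, -0.91, -2.66 and -1.90 on control 1 to 4. COH 4 was the lowest array, and COH was lower in 3 of 4 pairs, with pair 3 the exception. The difference was -1.24 ± 0.51 (SE, 95% interval -2.44 to -0.04), with an unadjusted limma p of 0.045 and an adjusted p of 0.915. Without pair 4 it was -0.85 and without pair 3 -1.72. The spot had shared values on 7 of 8 arrays. Another 10 spots of Slc1a2, listed under a different transcript record, had 23 of 40 possible values in COH and 24 of 40 in control samples. Those values ran from -2.41 to 2.14 in COH and from -1.54 to 3.34 in control samples, with spot means of -0.06 to 2.14 beside -2.33 for the complete spot. The spots of this gene thus disagreed in level.

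Glial markers were read beside these 2 genes. Of 9 Muller glia markers, 6 were measured, with a median level per array of -0.42 to 0.29 in COH and -0.20 to 0.16 in control samples. Their differences ran from -0.57 for the water channel gene Aqp4 to 0.83 for the glutamine synthetase gene Glul, and that of Aqp4 was -0.04 without pair 4 and that of Glul 0.29 without pair 3. Of the 6, 3 differences were above 0 and 3 below, with a median of -0.03. Rlbp1, Kcnj10 and Sox9 were without a complete spot. Of 4 astrocyte markers, 3 were measured. Their median level per array was 0.46 to 0.98 in COH and 0.33 to 1.52 in control samples. Among them Aldh1l1, a folate enzyme of astrocytes, was lower in 4 of 4 pairs, with a difference of -0.92, an unadjusted limma p of 0.0384 and an adjusted p of 0.915. Gfap differed by 0.15 and S100b by -0.28. Of 7 bipolar cell markers, 4 were measured, with differences of -0.42 to 0.35 and a median of 0.14. Which cells have a part in the difference of Slc1a2 was not tested.

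Slc1a6, a glutamate transporter known from cerebellar Purkinje cells, varied more between arrays than between groups. It was at 2.10, -0.15, -0.05 and 0.94 on COH 1 to 4, against 0.56, 1.71, -1.36 and 0.63 on control 1 to 4. The control 3 value was shared by 321 spots of that array and the control 1 value by 557. The difference of 0.33 had an interval from -1.10 to 1.76, and was -0.08 without pair 1, 1.06 without pair 2 and under 0.01 without pair 3. Slc1a7, the chloride-conducting glutamate transporter of photoreceptors and bipolar cells, lacked values on COH 1 and control 1. It was at 2.39 to 2.61 on the other 3 COH arrays and 0.66 to 2.08 on the other 3 control arrays, higher in each of the 3 pairs. Where 3 complete pairs were enough to enter the fit, its difference was 1.19 (unadjusted limma p 0.0566, adjusted p 0.905). The neutral amino acid exchangers of the same family lay near or below the reference. Slc1a5 was at -0.05 in COH cells against -0.08 in control cells, and Slc1a4 at -0.81 in COH cells against -1.14 in control cells.

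**Figure D3:**
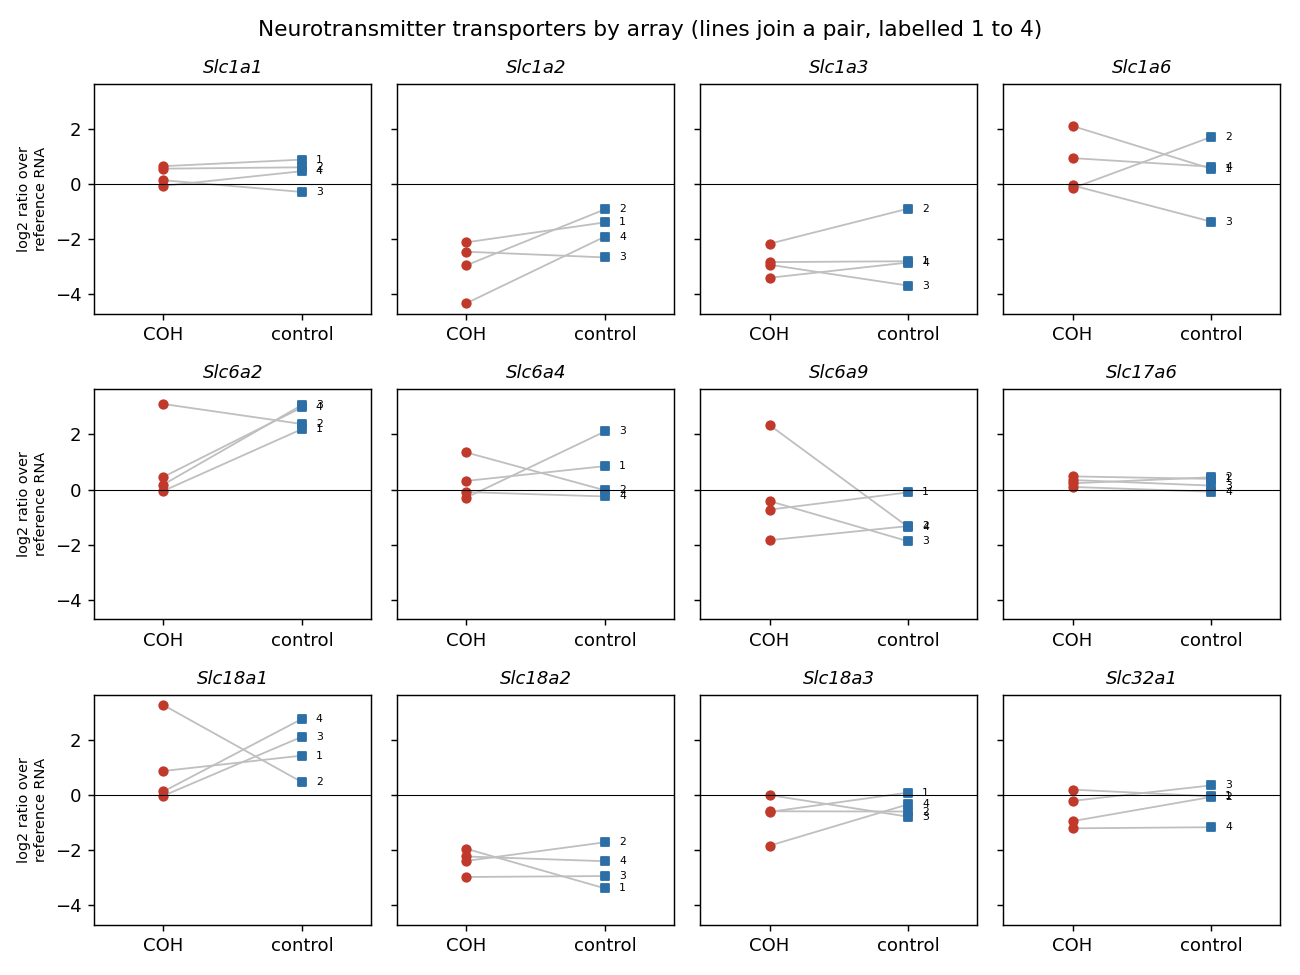
Log2 ratio over reference RNA of 12 glutamate, glycine, monoamine, acetylcholine and GABA transporter genes, COH (circles) beside control (squares), with lines joining the arrays of a pair. Slc17a6 and Slc1a1 stay near 0 in both groups, Slc1a2, Slc1a3 and Slc18a2 lie below 0 on all 8 arrays, and Slc6a2 is at 2.19 or more on every control array but on COH arrays only in pair 2.

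Transporters of inhibitory transmitters were represented by a vesicular and a glycine gene. Slc32a1, which loads GABA and glycine into vesicles of amacrine and horizontal cells, had a single spot with distinct values. It was at 0.20, -0.94, -0.21 and -1.20 on COH 1 to 4, against -0.04, -0.07, 0.35 and -1.16 on control 1 to 4. The groups overlapped, with a difference of -0.31 (95% interval -1.15 to 0.53, limma adjusted p 0.935) that was -0.49 without pair 1 and -0.12 without pair 2. Slc6a9, the glycine transporter that marks glycinergic amacrine cells, was at -0.73, -1.83, -0.42 and 2.34 on COH 1 to 4, against -0.10, -1.32, -1.87 and -1.35 on control 1 to 4. On this spot COH 4 alone was above the reference, and the values of the other 7 arrays were shared ones. The difference of 1.003 had an interval from -0.76 to 2.76. It was 0.11 without pair 4, 1.55 without pair 1 and 1.51 without pair 2. A second spot, with values on 7 arrays, all of them shared, lacked COH 1. It was at 1.32, -0.61 and 0.56 on COH 2 to 4, against 0.22, 1.45 and -0.41 on control 2 to 4. COH was thus higher in pairs 2 and 4 and lower in pair 3. Control 1, without a partner on this spot, was at 1.96. With genes of at least 3 complete pairs admitted, which brings that spot in, the difference was 0.17. In that setting COH 1 rests on the first spot alone while control 1 averages both. Pair 1 thus compares unlike spots, and the 0.17 carries that mix. The GABA transporter genes Slc6a11 and Slc6a13 and the neuronal glycine transporter gene Slc6a5 had values on 2 to 3 arrays of each group and were not tested.

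Among the monoamine transporters, the noradrenaline transporter gene Slc6a2 showed the widest gap. It was at -0.05, 3.10, 0.18 and 0.46 on COH 1 to 4, against 2.19, 2.38, 3.07 and 2.98 on control 1 to 4. On 3 COH arrays it was near the reference, while COH 2 was the highest of all 8 arrays, so the groups overlapped through that array. The mean was 0.92 ± 1.47 in COH cells against 2.65 ± 0.43 in control cells (SD, n = 4). The difference of -1.73 ± 0.63 (SE, 95% interval -3.23 to -0.23) had an unadjusted limma p of 0.029 and an adjusted p of 0.915. Without pair 2 it was -2.55. The COH 1 value was shared by 380 spots of that array, and the COH 3 value by 23.

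Slc18a1, the vesicular monoamine transporter of endocrine cells, was also highest on COH 2 and low on COH 3 and 4. It was at 0.87, 3.26, -0.02 and 0.13 on COH 1 to 4, against 1.43, 0.47, 2.12 and 2.76 on control 1 to 4. The difference was -0.63 (95% interval -2.70 to 1.43), -1.78 without pair 2 (unadjusted limma p 0.0153), -0.13 without pair 3 and 0.03 without pair 4. Slc18a2, the vesicular monoamine transporter of neurons, was below the reference on every array, with a mean of -2.38 ± 0.43 in COH cells against -2.61 ± 0.72 in control cells (SD, n = 4). It was at -1.95, -2.38, -2.97 and -2.23 on COH 1 to 4, against -3.38, -1.71, -2.93 and -2.40 on control 1 to 4. The groups overlapped and the difference was 0.22 (95% interval -0.79 to 1.24), or -0.18 without pair 1 and 0.52 without pair 2. Slc6a4, which carries serotonin, was at 0.31, 1.34, -0.29 and -0.09 on COH 1 to 4, against 0.85, -0.03, 2.11 and -0.25 on control 1 to 4. Its difference of -0.35 had an interval from -1.79 to 1.09, and was 0.33 without pair 3 and -0.93 without pair 2. Each spot of Slc6a4 had shared values on 7 of 8 arrays. For Slc6a3, the dopamine transporter, COH 2 held the only value.

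The vesicular acetylcholine transporter gene Slc18a3, expressed with Chat in starburst amacrine cells, was at -0.61, -0.59, 0.00 and -1.83 on COH 1 to 4, against 0.09, -0.60, -0.78 and -0.33 on control 1 to 4. COH 4 was lowest. The difference was -0.35 (95% interval -1.42 to 0.71). It was -0.73 without pair 3 and 0.03 without pair 4. Of 10 amacrine and horizontal cell markers, 7 were measured, with a median level per array of -0.41 to 0.23 in COH and -0.78 to 0.12 in control samples. Chat, Gad1 and Tfap2a were without a complete spot. Differences of the 7 ran from -0.40 to 0.61 and none had an unadjusted p under 0.05 by limma; Tfap2b, at 0.61, was higher in 4 of 4 pairs.

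The remaining Slc6 genes carry osmolytes, creatine and neutral amino acids. Slc6a8, the creatine transporter, rested on a spot with distinct values and was the single transporter gene higher in 4 of 4 pairs, where 8.38% of all items were. It was at 0.10, 0.26, 0.07 and 0.93 on COH 1 to 4, against -0.20, 0.08, -0.50 and 0.21 on control 1 to 4. The groups overlapped. The difference was 0.44 ± 0.32 (SE, 95% interval -0.32 to 1.20, limma adjusted p 0.916), and 0.13 with the position trend removed. An incomplete spot of Slc6a8 was far lower, at -2.64 to -1.77 on 3 COH arrays and -2.35 to -1.60 on 3 control arrays. Slc6a6, the taurine transporter, was at -2.05, -2.46, -1.49 and 0.74 on COH 1 to 4, against -1.66, -2.24, -3.65 and -2.72 on control 1 to 4. Again COH 4 alone lay above the reference. The difference of 1.25 had an interval from -0.40 to 2.90 and was 0.51 without pair 4. Slc6a17, a vesicular carrier of neutral amino acids in neurons, was at 0.46 in COH cells against 0.52 in control cells, a difference of -0.07 (95% interval -0.88 to 0.75).

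A photoreceptor marker stood high on COH 4 as well. Of 10 photoreceptor markers 2 were measured. The phosphodiesterase gene Pde6b was at 1.71 on COH 4 and 1.08 to 3.81 on the other COH arrays, while the transducin gene Gngt1 was at 3.25 on COH 4 and -2.22 to -0.98 on the other COH arrays. On control arrays Pde6b was at 1.31 to 2.77 and Gngt1 at -2.34 to -0.62. Sag, Pdc, Gnat1, Rcvrn, Crx, Nrl and Rp1 were among those without a complete spot. Whether photoreceptor RNA has a part in the COH 4 values of Slc6a6 and Slc6a9 was not tested.

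In the Slc7 family, the heteromeric transporters pair with a heavy chain from the Slc3 family. Slc7a10, which exchanges small neutral amino acids including D-serine, had the largest positive difference of the 40 genes. It was at 3.05, 3.12, 2.77 and 2.21 on COH 1 to 4, against 1.36, 1.78, -1.36 and 2.37 on control 1 to 4. COH arrays were high throughout, and control 4 lay above COH 4, so the groups overlapped. The mean was 2.79 ± 0.41 in COH cells against 1.04 ± 1.65 in control cells (SD, n = 4). The difference of 1.75 ± 0.67 (SE, 95% interval 0.17 to 3.33) had an unadjusted limma p of 0.035 and an adjusted p of 0.915. The control 3 value was the one that 321 spots of that array shared. Without pair 3 the difference was 0.95. A second, incomplete spot of Slc7a10 ran from 0.21 to 2.94 on 3 COH arrays and from 1.82 to 2.06 on 2 control arrays. Only pair 1 was complete there, and COH was lower in it, at 1.38 on COH 1 against 2.06 on control 1. Those values were shared by 352 and 129 spots of their arrays. The serine racemase gene Srr, whose enzyme makes D-serine, was at -0.35, -2.10, -1.33 and -2.51 on COH 1 to 4, against 0.07, -0.22, -0.40 and -0.01 on control 1 to 4. Srr was lower in 4 of 4 pairs, the difference being -1.43 ± 0.44 (SE), with an unadjusted limma p of 0.0143 and an adjusted p of 0.915. Without pair 2 it was -1.28 (unadjusted limma p 0.0536) and without pair 4 it was -1.08 (unadjusted limma p 0.0555).

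Slc7a11, the light chain of the cystine and glutamate exchanger that feeds glutathione synthesis, was above the reference on all 8 arrays. It was at 1.15, 1.20, 1.46 and 0.51 on COH 1 to 4, against 1.21, 1.06, 1.71 and 1.57 on control 1 to 4. Values of its spot were shared by 12 to 59 spots on every array. The difference was -0.31 (95% interval -1.16 to 0.54, limma adjusted p 0.935), and -0.06 without pair 4. A second, incomplete spot ran the other way between the groups, at 1.51 on COH 2 and 0.15 on COH 4, against -0.58 to 1.21 on the 4 control arrays. Slc7a5, which takes up large neutral amino acids, was below the reference on all 8 arrays, at -1.67 ± 0.46 in COH cells against -1.65 ± 0.64 in control cells (SD, n = 4), with a difference of -0.02 (95% interval -0.88 to 0.84). The heavy chain Slc3a2 differed by -0.24, and by 0.13 without pair 4, and Slc3a1 by -0.18. Slc7a7 differed by 0.12, Slc7a8 by -0.29 and Slc7a9 by -0.20. Without pair 4 the difference of Slc7a9 was -1.16, with an unadjusted limma p of 0.0242. The spot of Slc7a9 had shared values on 7 of 8 arrays.

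Arginine and lysine are carried by Slc7a1, Slc7a2 and Slc7a3. Slc7a2, an inducible arginine transporter, was the lowest of the 40 genes in control cells. It was at -2.28, -2.92, -3.31 and -2.37 on COH 1 to 4, against -2.23, -2.72, -3.88 and -4.14 on control 1 to 4. The difference of 0.52 had an interval from -0.50 to 1.54, and was 0.11 without pair 4. Its 2 incomplete spots stood higher, at -0.63 to 0.12 in COH samples and -0.59 to 1.002 in control samples. Slc7a3, found mainly in neurons, was at -1.08 in COH cells against -1.44 in control cells. Slc7a1, the widely expressed arginine transporter, has a gene mean of -1.06 in COH cells against -0.68 in control cells that describes neither of its spots. One spot averaged 1.84 in COH cells against 1.69 in control cells and the other -3.95 in COH cells against -3.05 in control cells, both with distinct values. Their differences were 0.14 and -0.90. Across the 10 genes with several complete spots, 4 had spots whose means lay over 1 log2 unit apart: Slc7a1, Slc38a6, Slc38a1 and Slc1a1.

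Other members of the Slc17 family carry organic anions. Slc17a2, which belongs to the sodium and phosphate transporter branch, was at -1.52, -1.53, -1.63 and -1.83 on COH 1 to 4, against -1.39, -0.75, 0.41 and -0.55 on control 1 to 4. Every COH array lay below every control array. The mean was -1.63 ± 0.14 in COH cells against -0.57 ± 0.75 in control cells (SD, n = 4), giving a difference of -1.06 ± 0.41 (SE), with an unadjusted limma p of 0.037 and an adjusted p of 0.915. Its spot had shared values on 8 of 8 arrays, 233 spots having the COH 1 value, and without pair 3 the difference was -0.73. Slc17a5, the lysosomal sialic acid exporter, was at 2.44, 1.05, 1.53 and -0.52 on COH 1 to 4, against 1.61, 1.65, 1.15 and 1.80 on control 1 to 4. Its spot had distinct values, and COH 4 was the only array below the reference. The difference was -0.43 (95% interval -1.75 to 0.90). It was -0.85 without pair 1, -0.69 without pair 3 and 0.21 without pair 4. Slc17a3 was at -2.22 in COH cells against -1.85 in control cells.

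In the proton-coupled Slc36 family, Slc36a3 had the smallest p of all 40 genes. This relative of the lysosomal amino acid exporters is known in mouse from testis. It was at 1.50, 0.90, 1.96 and -0.83 on COH 1 to 4, against 2.42, 2.32, 3.29 and 3.25 on control 1 to 4. The groups did not overlap, and COH was lower in 4 of 4 pairs, where 4.66% of all items were. The mean was 0.88 ± 1.22 in COH cells against 2.82 ± 0.52 in control cells (SD, n = 4). The difference of -1.94 ± 0.57 (SE, 95% interval -3.29 to -0.58) had an unadjusted limma p of 0.012 and an adjusted p of 0.915. COH 4 was the lowest, and without pair 4 the difference was -1.22 with an unadjusted limma p of 0.0177. The spot had shared values on the 4 COH arrays, where 5 to 15 spots held each value, and on none of the 4 control arrays.

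One microglial marker had a like pattern. Of 6 microglia and macrophage markers 5 were measured, and their median level per array was -1.17 to 0.69 in COH samples and -0.07 to 0.68 in control samples. The fractalkine receptor gene Cx3cr1 was at 1.12, 1.13, 1.45 and -0.63 on COH 1 to 4, against 3.04, 2.64, 2.80 and 2.79 on control 1 to 4. Its groups did not overlap, COH 4 was lowest, and the difference was -2.05 (limma adjusted p 0.915), or -1.59 without pair 4. The other measured markers, Aif1, Csf1r, Cd68 and Ptprc, differed by -0.59 to 0.48, and Aif1 and Ptprc were below the reference on all 8 arrays. The part of microglia in the difference of Slc36a3 was not tested.

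Slc36a2, a carrier of proline and glycine, was also lower in 4 of 4 pairs, but by little. It was at -2.55, -2.70, -2.39 and -1.89 on COH 1 to 4, against -2.42, -1.81, -2.37 and -1.73 on control 1 to 4. The groups overlapped, with a difference of -0.30 (95% interval -1.10 to 0.50, limma adjusted p 0.934) that was -0.10 without pair 2. A second, incomplete spot of Slc36a2 stood higher, at -0.91 and 0.97 on 2 COH arrays and 2.41 and 3.04 on 2 control arrays. Slc36a4 was at -0.86 in COH cells against -0.98 in control cells. Slc36a1, a lysosomal amino acid exporter, had values on 3 arrays of each group and was not tested.

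None of the 7 measured Slc38 genes had an unadjusted p under 0.05 by limma, and their differences ran from -0.42 to 0.38. Slc38a2, the stress-inducible glutamine and alanine carrier, had distinct values and was tightly grouped except on 1 array. It was at 0.53, 0.58, 0.48 and -1.48 on COH 1 to 4, against 0.61, 0.39, 0.33 and 0.41 on control 1 to 4. The difference was -0.41 (95% interval -1.48 to 0.67), and 0.09 without pair 4. Its 2 incomplete spots had means of 0.53 and 0.71 over 3 COH arrays each and of -0.47 and -0.24 over 2 control arrays each, from partly different pairs. The first had only pair 3 complete, at -0.40 on COH 3 against 0.39 on control 3, so lower in COH. The second had pairs 2 and 4. It was at 0.675 on COH 2 against 0.670 on control 2, and at 1.57 on COH 4 against -1.14 on control 4. Slc38a1, the glutamine carrier of neurons, averaged -0.54 in COH cells against -0.12 in control cells, from 2 spots whose means over all arrays were 0.40 and -1.06. Slc38a3, which releases glutamine from glia, was below the reference on all 8 arrays at -2.47 ± 1.07 in COH cells against -2.30 ± 1.05 in control cells (SD, n = 4). Slc38a4 was at -2.83, -3.05, -1.75 and -2.75 on COH 1 to 4, against -3.36, -1.57, -4.12 and -2.88 on control 1 to 4, with a difference of 0.38 (95% interval -1.06 to 1.83) that was 1.01 without pair 2 and -0.28 without pair 3. Slc38a6 had 3 spots with means of 1.89, -1.15 and -1.56, so its gene level of -0.23 in COH cells against -0.32 in control cells lies between them. Slc38a7 and Slc38a10 were below the reference in both groups.

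**Figure D4:**
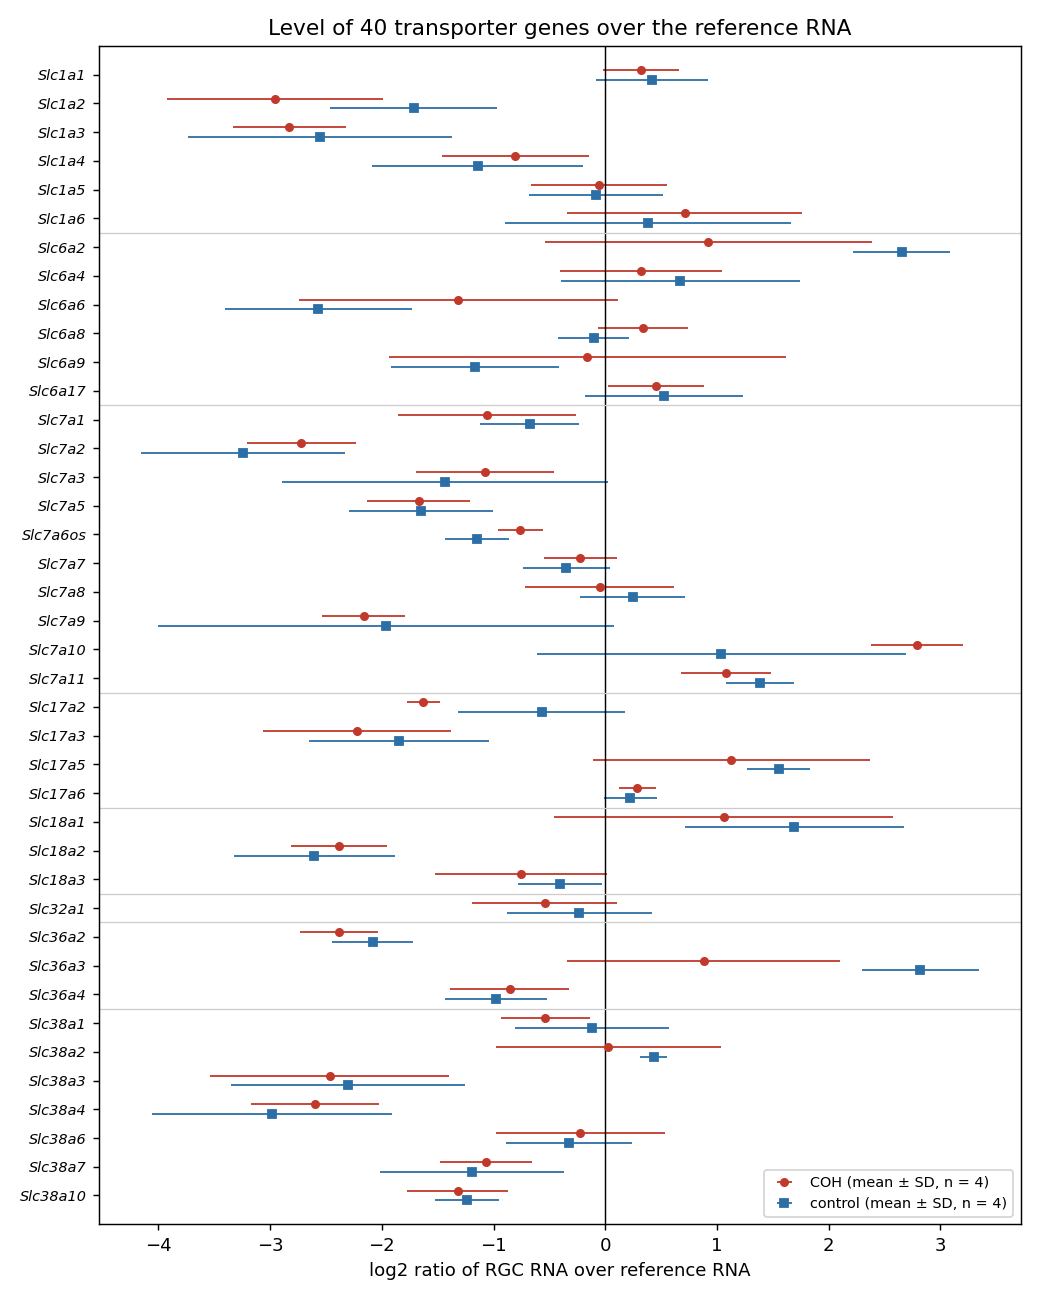
Mean log2 ratio over reference RNA of the 40 transporter genes by family, COH above control (mean ± SD, n = 4 each). Most genes lie left of 0 in both groups; Slc36a3, Slc6a2 and Slc18a1 were highest in control cells and Slc7a10 in COH cells.

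Viewed over families, levels lay below the reference more often than above it in both groups. Of the 40 genes, 5 were above the reference on all 4 COH arrays and 20 below, while 6 were above it on all 4 control arrays and 19 below. Among all named genes, 21.4% were above on all 4 COH arrays and 42.9% below, against 22.3% above and 45.9% below on the control arrays. The median level of the 40 genes was -0.65 in COH cells against -0.49 in control cells, beside -0.35 in COH cells against -0.41 in control cells for all named genes. By family, the Slc6 genes had the highest median, 0.33 in COH cells against 0.21 in control cells. The Slc38 genes had the lowest, -1.07 in COH cells against -1.19 in control cells, over 7 genes. Slc7 genes were at -0.91 in both groups, while Slc1 genes were at -0.43 in COH cells against -0.61 in control cells. For the 13 genes with a distinct spot the median level was -0.050 in COH cells against -0.084 in control cells, and none of these had an unadjusted p under 0.05. The other 27 were at -0.86 in COH cells against -1.14 in control cells and held all 5 genes with such a p.

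Heavy chains, enzymes and regulators of the same pathways were looked at as a list of 35, of which 24 were measured. None passed the adjusted threshold. At an unadjusted limma p under 0.05, Srr was lower in COH cells and no gene was higher. The median difference of the 24 was -0.04. Gad2, an enzyme of GABA synthesis, differed by 0.31, and the glutaminase gene Gls2 by 0.35. The transcription factor genes Atf4 and Nfe2l2, known to act on Slc7a11, differed by -0.17 and 0.14. Asns, which makes asparagine, differed by -0.06. Gad1, Chat and Gclc were among the genes without a complete spot.

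The 22 transporter genes without a complete spot had 63 values in COH and 58 in control samples, of 100 possible in each group. In 5 of them (Slc1a7, Slc17a1, Slc17a7, Slc38a5 and Slc38a9) a spot had 3 complete pairs, and where this was enough their differences were 0.11 to 1.19, none with an unadjusted limma p under 0.05. Slc7a6, a light chain for large neutral amino acids, had a value on all 4 COH arrays, from -1.78 to 1.68, and on no control array. Its values on COH 1, 2 and 3 were shared by 833, 17 and 715 spots of those arrays. Slc6a3, Slc38a8 and Slc7a13 had at most 1 value per group. Slc17a9, the vesicular nucleotide transporter, was above the reference wherever it had a value, at 0.996 to 1.50 on 3 COH arrays and 0.62 to 2.18 on 3 control arrays. The lysosomal arginine sensor Slc38a9 was at -3.26 to 0.21 on 3 COH arrays and -3.15 to -0.79 on 4 control arrays.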

How the data were processed

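Purified RGC RNA was amplified, labelled with Cy5 and hybridised with Cy3-labelled reference RNA on Agilent rat oligonucleotide arrays, per the labels' protocols. Dyes were not swapped. The deposited values are log2 ratios, normalised by the authors with Lowess and limited to spots passing Agilent quality criteria, according to the design text. The software is not named there. Log base and direction are not stated in the table: base 2 was read from recurring values and the direction, RGC over reference, from the dyes and design text. Array medians were -0.06 to 0.13.

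Of 45220 spots, 25353 had 1 gene symbol, 48 several and 19819 none. For 25306 the gene identifier was matched and its current symbol used, whether or not this changed the symbol. Spots complete over the 8 arrays (22856) were averaged per symbol, giving 9792 genes and 8803 unnamed probes. Limma (version 3.58.1, R 4.3.3; lmFit, eBayes, two-sided, Benjamini-Hochberg over all 18595 items) was fitted with the pair as a block, since the design text forms ratios within pools from the same animals. As a check, arrays of 1 pair had deviations from their group means that correlated at 0.02 to 0.09, and other COH and control arrays at -0.19 to 0.09. The p-values set the mean difference against the spread of differences between the 4 pairs of pools, moderated by limma over all items. They do not measure the spread between animals. On simulated data of the same size the fit recovered the sizes of known changes, but passed none of them at the adjusted threshold. At an unadjusted limma p under 0.05 it passed 48.7% of changes of 1 log2 unit, 91.6% of 2 and 98.2% of 3. Only a small share of items was changed, and the yield at the adjusted threshold depends on that share.

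Genes given array by array were the glutamate, GABA, glycine, monoamine, acetylcholine and vesicular transporters, those with an unadjusted p under 0.05 (filled up to 5 per direction with genes of 4 of 4 pairs), and the 4 highest and 4 lowest in control cells. Slc6a8 and Slc36a2 entered as fillers. Slc7a11, Slc38a2 and Srr were added after their values were seen. Members and lists were chosen with earlier results of these data known. Alternatives covered block, scaling, position trend (running median over 1001 spots), incomplete or shared-value spots, averaging of spots, array weights, prior and each pair left out. Intervals are 95% moderated intervals.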

Additional observations from a re-analysis of the deposited data

Results flagged for a closer look

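For the 21 genes named by rule, the 4 COH and the 4 control values were each searched for a lone extreme, 42 groups in all, of which chance marks about 1 in 20. One stood apart. Slc6a2 was at 3.10 on COH 2, whereas the other COH arrays were at -0.05 to 0.46.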

How the results depend on the processing

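No item and no transporter gene passed the adjusted threshold in the main setting or in any of 15 alternatives, and the fit passed none in simulated data either. The 880 items at an unadjusted p under 0.05 (477 higher, 403 lower) became 837 (366 and 471) with the position trend removed and 431 (358 and 73) with distinct values only, where 8278 items were tested. The 5 transporter genes at that p became 3 with array weights, 0 of 13 with distinct values only, where fewer genes were tested, and 2 to 3 with a pair left out, Slc36a3 being the gene in all 4 of these. Slc18a1 without pair 2 and Slc7a9 without pair 4 came in at that p. Without the replicate block they were the same 5 genes, with 697 items in all. Slc36a3 kept an unadjusted p under 0.05 in 13 of 13 alternatives that gave it a value (0.00596 to 0.0221), whereas Slc1a2, Slc6a2, Slc7a10 and Slc17a2 did so in 9 of 13 each. The median difference of the transporter genes, -0.09 in the main setting, moved by less than the SD between pairs, 0.27, in every alternative. That SD exceeds the median itself, so a turn of sign also falls within it. The median ran from -0.14 with quantile normalization to 0.03 with the 67 spots tested singly, and was -4.6e-06 without pair 4. With distinct values only, the median level of the transporter genes was -0.050 in COH cells against -0.084 in control cells, over 13 genes. Of 21 differences named by rule, 12 kept their sign in every alternative that gave a value, including the block and prior choices that cannot turn a sign. The cause of the other changes was not tested. Signal over background was not used here, so weak spots are known only by shared values.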
